A study of Mus musculus with 26 samples.

Results

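The dopamine receptor gene Drd2 and its neighbours Ankk1 and Ttc12 were examined in ATAC-seq peak lists of D2 and D1 medium spiny neuron (MSN) nuclei. Peaks that overlapped chr9:49190360-49558177 (mm10), which is the Drd2 body with 150 kb on each side, were taken from all 8 lists. Peaks that shared at least 1 bp were joined into elements, which gave 34 elements of 94493 in all lists together. The nuclei came from mouse brain, and the series title names the nucleus accumbens. The states, 4 per cell type, were acute cocaine (SC), long withdrawal after chronic cocaine (CS), cocaine relapse (CC) and baseline (SS). The D2 groups held 1 SC, 8 CS, 1 CC and 2 SS libraries, and the D1 groups held 4 SC, 4 CS, 4 CC and 2 SS libraries. Each group had 1 peak list with no value per library. There is thus no replicate error and no p-value for any value here, and a difference is one between 2 lists. Strain, age, doses and the way in which D1 and D2 nuclei were marked and sorted are not given in the sources used here.

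ATAC-seq uses a transposase that inserts adapters where DNA is accessible, so peaks mark promoters, enhancers and other open sites. Drd2 encodes the inhibitory dopamine receptor that defines indirect pathway MSNs, where it couples to Gi/o proteins and lowers cAMP. Ankk1 is a kinase gene next to the 3' end of Drd2 whose human counterpart carries the Taq1A polymorphism. Ttc12, beyond Ankk1, encodes a tetratricopeptide repeat protein that is needed, in human, for the assembly of dynein arms in motile cilia. Ncam1, a neural cell adhesion gene, enters the window with its 3' part only.

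The promoters of the Drd2 and Ttc12 genes are shown because both held a peak in most lists. Each line gives the 250 bases before the RefSeq start (GRCm38.p6), 5' to 3' on the strand of the gene, at chr9:49340153-49340402 on the plus strand for Drd2 and chr9:49486226-49486475 on the minus strand for Ttc12. Capitals mark the Sp/KLF box GGGCGG or its reverse complement, and the short CRE core TGACG.
Drd2: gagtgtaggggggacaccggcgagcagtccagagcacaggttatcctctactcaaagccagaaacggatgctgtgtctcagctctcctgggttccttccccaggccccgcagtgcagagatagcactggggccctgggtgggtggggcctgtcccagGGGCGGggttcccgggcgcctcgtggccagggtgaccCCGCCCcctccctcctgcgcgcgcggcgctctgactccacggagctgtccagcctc
Ttc12: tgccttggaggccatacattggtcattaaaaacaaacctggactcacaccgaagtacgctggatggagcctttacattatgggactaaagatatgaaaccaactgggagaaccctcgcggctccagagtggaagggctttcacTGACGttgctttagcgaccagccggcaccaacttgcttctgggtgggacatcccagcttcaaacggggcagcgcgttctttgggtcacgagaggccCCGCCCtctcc

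The Drd2 promoter is rich in G and C. Over the whole 300-base RefSeq window (250 before and 50 after the start) its GC content was 70.3%, above that of 91.4% of 32851 promoter windows, and the Ttc12 window had 56.3%. The box GGGCGG was found at 2 places in the Drd2 window and 1 in the Ttc12 window, on either strand, and 35.7% of all windows hold it. The CRE core TGACG was found in the Ttc12 window and not in that of Drd2, and 20.8% of all windows hold it. Neither window held, on either strand, the TATA box TATAAA (in 13.6% of all windows), the AP-1 site TGACTCA (in 5.2%), the Egr site GCGTGGG (in 5.04%) or the FOX site TGTTTAC (in 3.65%). The ETS site CCGGAAG (in 8.86% of all windows), the NR4A site AAGGTCA (in 4.72%) and the E-box CAGCTG (in 16.3%) were also in neither window. No match says only that these letters are not in this stretch. All 250 printed Drd2 bases lay inside a peak element, and 39 of the 250 Ttc12 bases did, because the Ttc12 element reached from the start into the gene.

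Elements are named here by the distance of their middle from the Drd2 start that the authors' annotation gives (position 49340627), with positive values towards Ankk1 and Ttc12. They lay between -145.2 and +184.2 kb and were 221 to 1018 bp wide (median 577.5 bp). There were 4 elements in the gene-free flank before Gm4894, 2 in Gm4894, 7 between Gm4894 and Drd2, and 1 at the Drd2 promoter. The Drd2 body held 8, and 3 lay just beyond its 3' end, of which 2 fell in the noncoding RNA gene Gm46111. The 3' side of Ttc12 held 1, and there were 2 in its body, 1 at its promoter, 3 between Ttc12 and Ncam1, and 2 in the 3' part of Ncam1, where the noncoding Gm11149 also lies. Ankk1 held no peak in any of the 8 lists over its 11.85 kb (chr9:49415194-49427041). This does not show that Ankk1 is closed. Read density beside it was high in D2 lists, as described further on, and a peak is harder to list in such surroundings. Peaks were still listed in D2 at +68.0 to +71.2 kb, where density was 7.79 to 11.4 times the genome-wide background. In D1 lists it was at most 2.63 times around any element of the window. Density within Ankk1 was not measured, and why Ankk1 held no peak was not tested. The nearest elements lay 3.19 kb from Ankk1 on the Drd2 side (+71.2 kb) and 8.57 kb from it on the Ttc12 side (+95.3 kb).

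For each peak, 2 measures were recovered from the fold enrichment and q-value that the authors deposited. The first, called height here, is the number of reads at the peak divided by the genome-wide background of its list, and its 95% Poisson interval is given in brackets. The second, called local density here, is the number of reads in the 10 kb around the peak relative to the same background, so that 1 is the genome-wide level. A local density of 1 is an upper bound, because the genome-wide background then replaced the local one. The background was 4.48, 2.22, 5.85 and 6.14 reads in D2 SC, CS, CC and SS, and 1.15, 3.5, 4.23 and 4.12 reads in D1 SC, CS, CC and SS. PCR reads are not independent molecules, and the intervals cover counting error only.

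Peaks near markers of both MSN types were counted as a check of the labels. The counts for the D2 markers, which include Drd2 itself, were far apart only in SS. In that state the D2 list held 61818 peaks and the D1 list 28579. A peak in the gene body or within 5 kb was found for 10 of 10 D2 MSN markers in each of the 4 D2 lists, against 8, 9, 10 and 2 of 10 in D1 SC, CS, CC and SS. The length covered by these peaks was greater in D2 than in D1 in SC, CC and SS, but not in CS (9.46 kb in D2 and 12.55 kb in D1). For the 10 D1 MSN markers the counts were 10, 9, 10 and 9 in D2 SC, CS, CC and SS, and 10 in each D1 list, so this count hardly separated them. Peaks near the D1 MSN markers covered 22.02, 6.85, 28.75 and 23.06 kb in D2 SC, CS, CC and SS. In D1 SC, CS, CC and SS they covered 9.41, 15.81, 34.03 and 12.32 kb. In SC, CS and SS the covered length thus went the same way for both marker sets, and only in CC did it not. Of 21883 protein-coding genes, 67.2, 62.9, 69.2 and 68.5% had such a peak in D2 SC, CS, CC and SS, and 62.2, 70.1, 74.0 and 56.6% in D1 SC, CS, CC and SS. Of 35 markers of glia, vessels, interneurons and cortical neurons, 12 to 22 had a peak in D2 lists and 9 to 31 in D1 lists, with 346 to 425 bp per Mb of listed sequence in D2 lists and 277 to 588 bp in D1 lists. Mog, Mag, Gfap, Cldn5, Sst and Pvalb were among 12 of these markers without a peak in any D2 list, and Cx3cr1, Tmem119, Olig2 and Neurod6 were the 4 without a peak in any D1 list. The part of other cell types in the results was not tested.

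D2 lists held more elements of the window than D1 lists did. D2 SC, CS, CC and SS held 26, 17, 31 and 23 elements, covering 13814, 9053, 17342 and 13055 bp. D1 SC, CS, CC and SS held 8, 14, 15 and 2 elements, covering 2798, 5830, 8418 and 842 bp. The number in every D2 list was therefore above that in every D1 list. When only the strongest 27917 peaks per list were kept, the length of the shortest list, the numbers were 12, 17, 13 and 11 in D2 SC, CS, CC and SS, and 7, 7, 5 and 2 in D1 SC, CS, CC and SS. As a share of all peaks of a list, the window held 0.0459, 0.0645, 0.0453 and 0.0372% in D2 SC, CS, CC and SS, and 0.0282, 0.0330, 0.0195 and 0.00700% in D1 SC, CS, CC and SS. The exact 95% binomial intervals of these shares overlapped between the D2 and D1 lists of every state. In CC they were 0.0308 to 0.0643% in D2 and 0.0109 to 0.0321% in D1. In SS they were 0.0236 to 0.0558% in D2 and 0.000848 to 0.0253% in D1. These intervals treat the peaks of a list as independent.

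**Figure D1:**
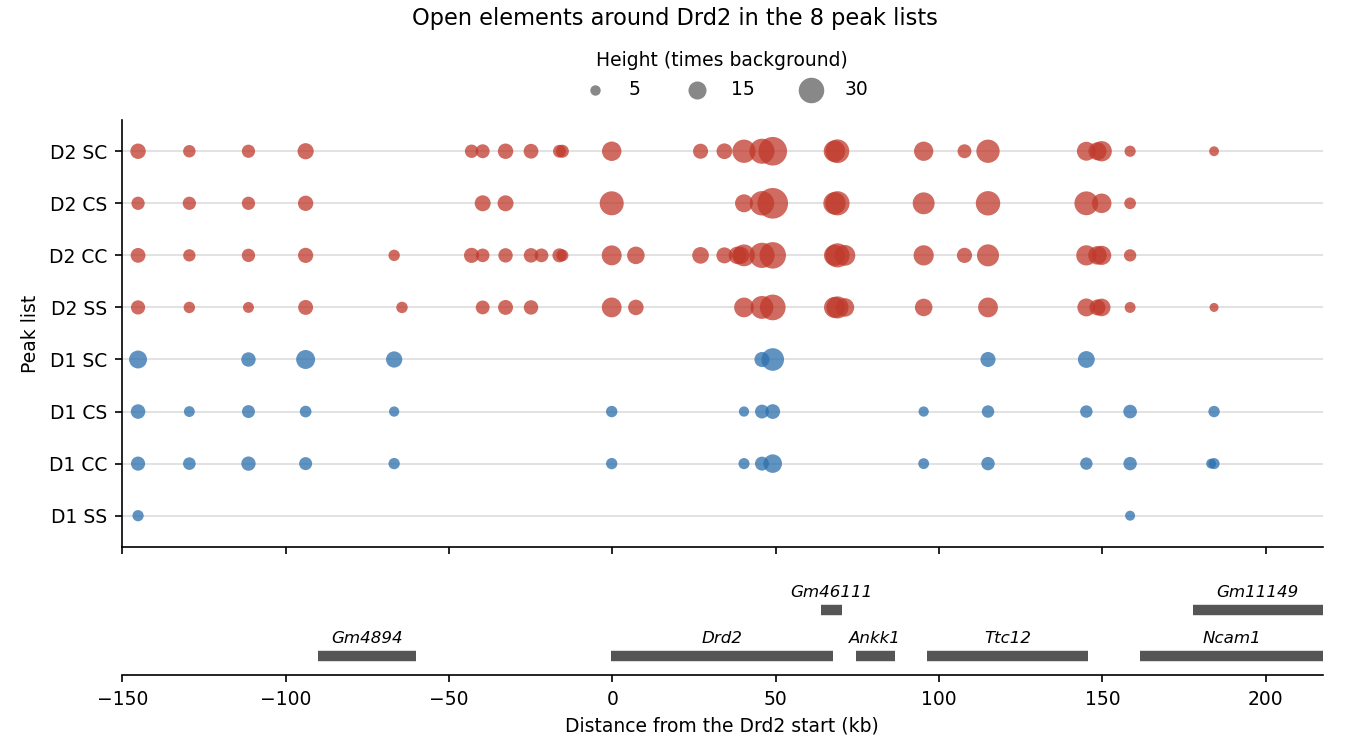
Elements of the window by distance from the Drd2 start (kb) in the 8 peak lists, D2 lists above D1 lists, with RefSeq genes as bars below. The area of a circle is the peak height relative to the list's genome-wide background. The tallest D2 element lies at +49.1 kb inside Drd2 in each D2 list, while D1 SS shows 2 elements only, at -145.2 and +158.5 kb.

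Of the 34 elements, 5 were called in all D2 lists and in no D1 list, against 0.037% of all elements in the series. They lay at -39.7 kb (chr9:49300720-49301049) and -32.7 kb (chr9:49307562-49308265) upstream of Drd2, at +68.0 kb (chr9:49408292-49408882) and +68.9 kb (chr9:49409257-49409828) just past its 3' end within Gm46111, and at +149.8 kb (chr9:49490045-49490753) upstream of Ttc12. None was called in all D1 lists and no D2 list, against 0.00529% of all elements. In all, 19 of the 34 were in 1 or more D2 lists and no D1 list, which is 55.9% of them, against 19.1% of all elements. The reverse held for 1 element, at +183.3 kb in D1 CC, against 18.6% of all elements. The element at -145.2 kb, 1 of the 34, was called in all 8 lists, against 18.2% of all elements. The count of 5 was 3 at a q-value of at most 1e-05. It was 17 of 33 when only the lists with few patch-scaffold peaks, described further on, were set against each other (D2 SC, CC and SS against D1 SS), against 28.4% of all elements in these lists.

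The pair just past the 3' end of Drd2 was the tallest of the 5. At +68.9 kb the heights were 25.9 (21.4 to 31.0), 27.0 (20.6 to 34.8), 26.8 (22.8 to 31.4) and 22.5 (18.9 to 26.6) in D2 SC, CS, CC and SS, with no peak in any D1 list. At +68.0 kb the heights were 21.4, 23.0, 20.3 and 20.2 in the same D2 lists. The 4 D2 lists were close to each other at both elements, and their intervals overlapped. At +149.8 kb the D2 heights were 19.0, 17.6, 16.9 and 14.3, while at -39.7 and -32.7 kb they ranged from 8.54 to 11.7. All of these D2 heights were above the lowest height at which a peak on the genome-wide background was listed in the D1 lists, which was 3.07 to 6.97. The D2 heights include the dense surroundings described further on, at 3.26 to 10.3 times the genome-wide background around these 5 elements. The comparison thus cannot tell a site that is closed in D1 from a site below detection there.

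The Drd2 promoter (chr9:49340001-49340864) was open in all D2 lists and called in D1 CS and D1 CC, but not in D1 SC or D1 SS. Its height was 17.4 (13.8 to 21.7), 26.6 (20.2 to 34.3), 18.3 (14.98 to 22.1) and 18.1 (14.9 to 21.8) in D2 SC, CS, CC and SS. It was 6.01 (3.72 to 9.18) in D1 CS and 5.91 (3.83 to 8.73) in D1 CC. The intervals of the D2 and D1 lists did not overlap. The promoter stood at percentiles 92.6 to 96.8 of peak heights in the D2 lists and at percentiles 28.1 and 34.5 in D1 CS and D1 CC. Its D2 heights include the dense surroundings described further on. By deposited fold it was higher in D1, at 4.72 in CS and 4.45 in CC, against 4.60 and 3.22 in D2.

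Within the Drd2 body, the tallest element of the window lay at +49.1 kb (chr9:49389237-49390153), classed by the authors as gene body. Its height was 37.7 (32.2 to 43.8), 43.2 (35.0 to 52.8), 32.3 (27.8 to 37.2) and 30.5 (26.2 to 35.1) in D2 SC, CS, CC and SS, and it was the tallest of the window in each. Its height was 23.5 (15.5 to 34.2), 10.0 (6.97 to 13.9) and 15.8 (12.3 to 20.1) in D1 SC, CS and CC, with no peak in D1 SS. The D2 and D1 intervals were apart in CS and CC and overlapped slightly in SC, where the D1 value rests on 27 reads. The element stood at percentiles 99.8 to 99.9 of peak heights in the D2 lists, against 67.1 to 87.3 in the D1 lists. Its neighbour at +45.8 kb had heights of 29.0, 27.5, 29.4 and 24.1 in D2 SC, CS, CC and SS, and of 10.5, 8.87 and 8.99 in D1 SC, CS and CC. The element at +40.3 kb had heights of 24.99, 14.9, 22.04 and 17.9 in D2 SC, CS, CC and SS, and of 4.86 and 5.68 in D1 CS and CC. By deposited fold the elements at +45.8 and +40.3 kb were higher in D1 in each state in which both held them. At +49.1 kb the fold was higher in D1 in SC and CC and in D2 in CS. The other 5 elements of the body, at +7.2, +27.0, +34.3, +38.3 and +39.3 kb, were in 1 or 2 D2 lists each, always including D2 CC, and in no D1 list.

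Ttc12 showed the same direction as Drd2. At its promoter (+145.1 kb, chr9:49485247-49486264) the heights were 16.5, 26.1, 18.8 and 14.8 in D2 SC, CS, CC and SS, and 13.1, 7.15 and 7.09 in D1 SC, CS and CC, with no peak in D1 SS. The D2 values were higher than the D1 values of the same state in CS and CC, with intervals that did not overlap, while in SC they were 16.5 (12.96 to 20.7) in D2 and 13.1 (7.31 to 21.6) in D1. In the Ttc12 body at +115.0 kb (chr9:49455249-49455977) the heights were 24.99, 27.5, 22.4 and 18.1 in D2 SC, CS, CC and SS, and 10.5, 7.15 and 8.28 in D1 SC, CS and CC. At its 3' side at +95.3 kb (chr9:49435613-49436285) they were 17.2, 22.1, 18.8 and 14.2 in the D2 lists, and 4.86 and 5.44 in D1 CS and CC. The body element at +107.8 kb was in D2 SC and D2 CC only. So each Ttc12 element was taller in the D2 list than in the D1 list of the same state wherever both held it. These heights include the dense surroundings described further on. By deposited fold the Ttc12 promoter was higher in D1, at 4.79, 4.00 and 3.25 in SC, CS and CC, against 2.75, 3.75 and 2.84 in D2. At +115.0 kb the fold was higher in D2 in SC and CS and in D1 in CC. At +95.3 kb it was higher in D2 in CS and in D1 in CC.

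The outer elements did not share this direction. At -145.2 kb (chr9:49195021-49195762), the element in all 8 lists, the heights were 10.9, 8.11, 10.1 and 9.28 in D2 SC, CS, CC and SS, and 14.8, 9.72, 9.22 and 5.82 in D1 SC, CS, CC and SS, so that D1 was higher in SC and CS and D2 in CC and SS. Heights also differed between lists over the whole genome. The median D2 over D1 height ratio of all shared elements was 0.62, 0.99, 0.83 and 1.34 in SC, CS, CC and SS. The ratio at -145.2 kb was 0.738, 0.834, 1.09 and 1.59, above these medians in SC, CC and SS and below in CS. At -129.5 kb (chr9:49210689-49211601) they were 6.03 to 8.11 in D2 lists and 5.43 to 7.33 in the 2 D1 lists that held it. At -111.4 kb (chr9:49228890-49229568) they were 5.54 to 8.20 in D2 lists and 7.72 to 9.58 in D1 lists, and at -93.9 kb (chr9:49246343-49247116) 10.3 to 12.05 in D2 lists and 6.29 to 16.6 in D1 lists. At +158.5 kb (chr9:49498830-49499412), between Ttc12 and Ncam1, they were 5.80, 6.30, 7.004 and 5.54 in D2 SC, CS, CC and SS, and 8.58, 8.28 and 4.61 in D1 CS, CC and SS. In the 3' part of Ncam1 no height passed 6.01 in any list. D2 and D1 values overlapped at all 5 of these flank elements.

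Read density was high around all elements of 1 stretch in the D2 lists. All 25 elements from -43.1 to +149.8 kb, a stretch of 193.4 kb (chr9:49297309-49490753) that spans Drd2, Ankk1 and Ttc12, had local densities of 2.30 to 11.4 in the D2 lists that held them (median 5.35, 73 values). In D1 lists 7 of the 25 were held, at local densities of 1.01 to 2.63 (median 1.38, 18 values). For the 9 elements outside the stretch the range was 1 to 1.97 in D2 lists (median 1.29, 24 values) and 1 to 1.69 in D1 lists (median 1.17, 21 values). The stretch was set after its values were seen, as the elements with a local density of at least 2 in every D2 list that held them. Its edges, and the higher D2 values inside than outside, are therefore a description. The edges fell within the 21 kb between the Gm4894 element at -64.4 kb and the element at -43.1 kb, and within the 8.08 kb between the elements at +149.8 and +158.5 kb. Density was measured only around elements, and the longest distances without one inside the stretch were 29.3 kb (between +115.0 and +145.1 kb) and 23.6 kb (between +71.2 and +95.3 kb), which holds Ankk1. Local density includes the reads of the element itself and of others within 10 kb.

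**Figure D2:**
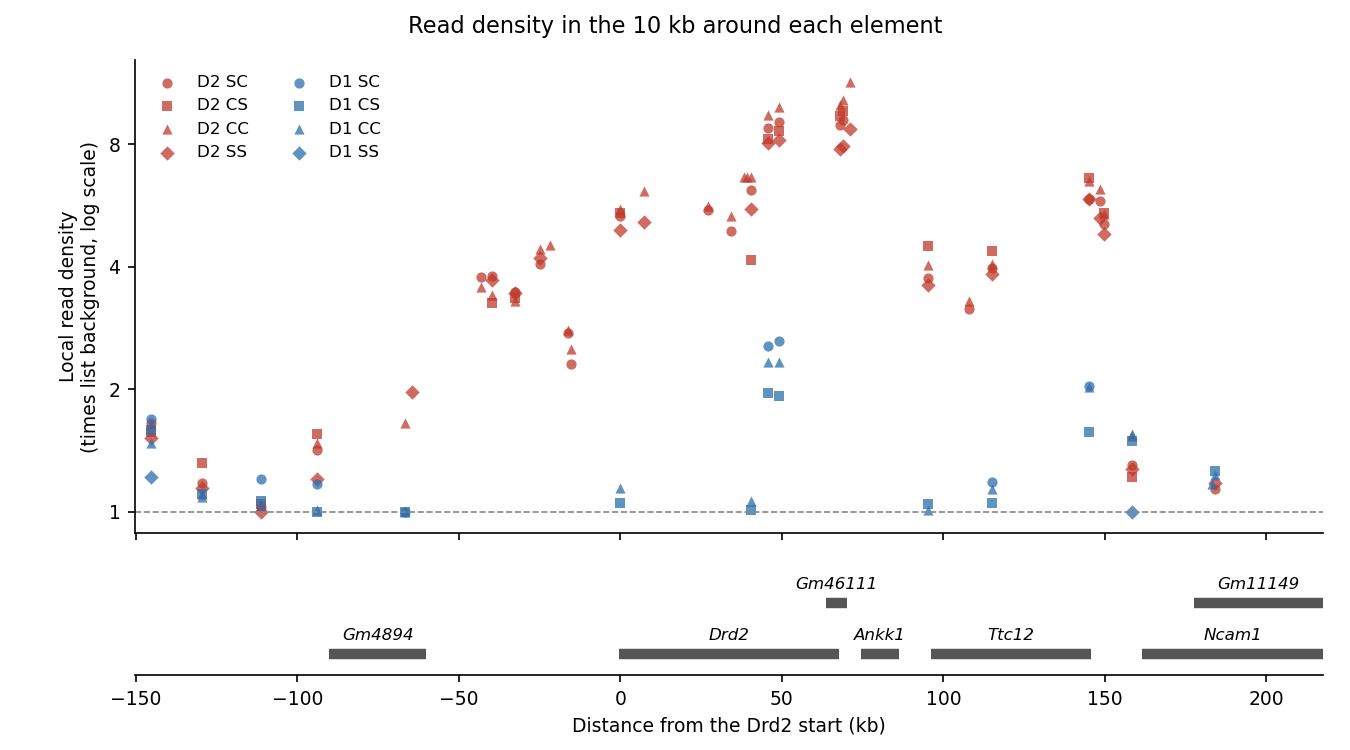
Local read density in the 10 kb around each element, as times the genome-wide background of the list on a log scale, by distance from the Drd2 start (kb). Red symbols are D2 lists and blue symbols D1 lists, 1 symbol shape per state, and the dashed line is the genome-wide background. D2 values lie between 2.30 and 11.4 from -43.1 to +149.8 kb and fall to 1.97 or less on both sides, while D1 values stay at or below 2.63.

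Within the stretch, local density in D2 lists was lowest at -15.3 kb upstream of Drd2 (2.30 and 2.51 in SC and CC) and highest at +71.2 kb between Drd2 and Ankk1 (11.4 in CC and 8.71 in SS). At the Drd2 promoter it was 5.32, 5.42, 5.56 and 4.93 in D2 SC, CS, CC and SS, against 1.05 and 1.14 in D1 CS and CC. At the Ttc12 promoter it was 5.86, 6.63, 6.50 and 5.86 in D2 SC, CS, CC and SS, against 2.04, 1.57 and 2.02 in D1 SC, CS and CC. No more than 6, 19, 2 and 9 peaks of the whole D2 SC, CS, CC and SS lists had a higher local density than the window's highest. In the D2 lists 17, 10, 19 and 16 peaks of the window were in the top 1% of their list by local density, and in the D1 lists none was.

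At elements held by both cell types, the D2 over D1 ratio of local density was higher inside the stretch than outside it in SC, CS and CC. The stretch was chosen by the D2 density, which is the numerator of this ratio, so this contrast partly follows from that choice. In CS the ratio was 4.12 to 5.18 (median 4.21) at the 7 shared elements inside and 0.82 to 1.55 at the 5 outside. In CC it was 3.22 to 6.28 (median 4.07) at 7 inside and 0.99 to 1.65 at 6 outside. In SC it was 2.87 to 3.46 (median 3.39) at 4 inside and 0.85 to 1.21 at 3 outside. The highest outside values, 1.55 at -93.9 kb in CS and 1.65 at -66.8 kb in CC, have D1 densities at the upper bound of 1 and are lower bounds of the ratio. Only 7 of 23745 shared elements of the genome, all within the stretch, had a higher ratio than -93.9 kb in CS. In SS both shared elements lay outside, at 1.25 and 1.27. In CS the ratio inside the stretch was about as high at Ttc12, at 4.17, 4.21 and 4.32, as at the 4 Drd2 elements, at 4.12 to 5.18. In CC it was lower at Ttc12, at 3.22, 3.59 and 4.02, than at these Drd2 elements, at 4.07 to 6.28. In SC it was 2.87 and 3.36 at Ttc12, against 3.42 and 3.46 at +45.8 and +49.1 kb in Drd2.

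**Figure D3:**
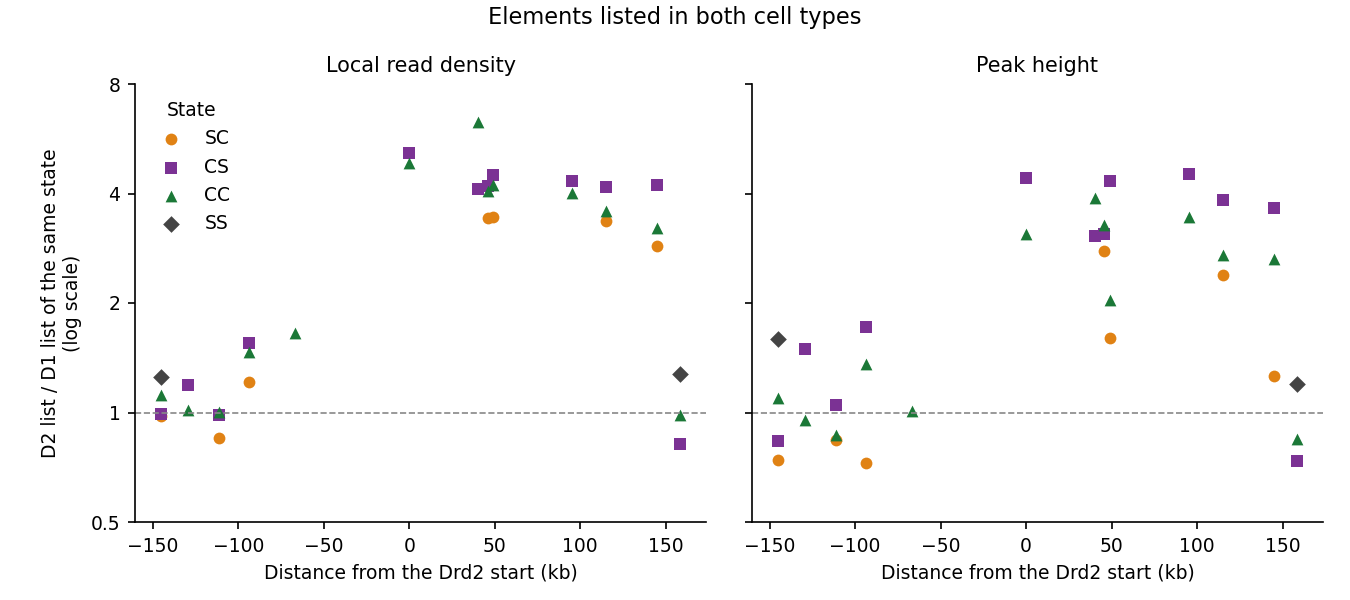
Ratio of the D2 list to the D1 list of the same state at elements both hold, by distance from the Drd2 start (kb), on a log scale, for local read density (left) and peak height (right). Symbols are the 4 states and the dashed line marks equal values. Local density ratios inside the stretch lie between 2.87 and 6.28 and those outside between 0.82 and 1.65; height ratios inside spread more widely, from 1.26 to 4.54.

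A ratio of this size was rare in the series. The local density was at least 2 times higher in D2 CS than in D1 CS at 7 of the 12 window elements called in both, against 0.0295% of all shared elements, and these 7 were all such elements in the genome. For CC the count was 7 of 13, against 0.0283% of all shared elements (15 in the genome), and for SC 4 of 7, against 0.0368% (9 in the genome). For SS it was 0 of 2, against 0.0147%. At equal list length the window counts were 2 in SC, 3 in CS and 2 in CC, since fewer elements were then held by both cell types. The 8 other CC elements included 1 near Adora2a (chr10:75324625-75325229), an adenosine receptor gene of D2 MSNs, at a local density of 3.93 in D2 and 1.94 in D1, and 1 near Penk (chr4:4130889-4133116), the enkephalin precursor gene, at 3.87 in D2 and 1.67 in D1. These genes were singled out after their values were seen. In SS 1 of the 4 elements of the genome lay near Penk as well (chr4:4138400-4139213), at 3.61 in D2 and 1.39 in D1. In CC the ratios were 2.02 near Adora2a and 2.31 near Penk, below each of those in the Drd2 stretch.

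The counterpart window of Drd1, the receptor gene of D1 MSNs, turned the other way. Its highest local densities were 1.80, 1.80, 1.82 and 1.57 in D2 SC, CS, CC and SS, and 5.72, 4.95, 6.17 and 3.85 in D1 SC, CS, CC and SS. Of the Drd1 window elements held by both, 5 of 6, 4 of 5, 7 of 11 and 5 of 6 had a local density at least 2 times higher in D1 in SC, CS, CC and SS, against 3.56, 0.0253, 0.249 and 0.0258% of all shared elements. In SC elements all over the genome passed this ratio, with 870 such elements in the genome and a median D2 over D1 ratio of 0.82 over all shared elements. Read numbers scale with the number of copies of a DNA stretch in the nucleus as well as with the accessibility of each copy, and in peak lists these cannot be told apart. Whether the animals carried additional copies of the Drd2 or Drd1 stretch was not tested.

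Other genes of dopamine signalling reached local densities of up to 4.65 in D2, within the range of the Drd2 stretch. The highest local density of each gene was compared between lists, and none was at least 2 times higher in D2 than in D1. The 2 values of a gene can come from different elements, unlike the ratios at shared elements above. By this measure Adora2a (3.93 in D2, 2.44 in D1) and Penk (4.19 and 2.73) would not pass in CC either. Of 20 genes of dopamine signalling (receptors, G proteins, adenylyl cyclase, phosphodiesterases, kinases and channels), 18, 18, 18 and 20 had a peak in D2 SC, CS, CC and SS, and 18, 18, 20 and 16 in D1 SC, CS, CC and SS, beside the shares of 62.9 to 69.2% of all protein-coding genes in D2 lists and 56.6 to 74.0% in D1 lists. The value of 4.65, the highest of the list in D2, lay near the kinase gene Gsk3b in CS, against 9.67 for the window of Drd2 in the same list. Drd1 was at least 2 times higher in D1 in every state. In SC Arrb2, Gnai2, Grk2 and Rgs9 were so too. In that state 3.56% of all shared elements passed this ratio towards D1, but that share is over single elements and not over the highest value per gene. Adcy5, the adenylyl cyclase that Drd2 signalling inhibits in striatum, had highest local densities of 3.97, 4.28, 4.19 and 3.45 in D2 SC, CS, CC and SS, and of 5.80, 4.35, 5.36 and 2.84 in D1 SC, CS, CC and SS.

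Elements in dense surroundings ranked low by fold in the D2 lists. In the form inferred from the values, the deposited fold divides the reads at a peak by the local background wherever that is above the genome-wide one. At +49.1 kb the deposited fold was 3.23 in D2 CC (percentile 15.8 of that list) and 6.25 in D1 CC (percentile 76.5), while the height was 32.3 in D2 CC and 15.8 in D1 CC. The q-value of the same element was 2.5e-39 in D2 CC and 1.7e-30 in D1 CC, so that fold and q ranked it differently. Of the window's peaks in D2 SC, CS, CC and SS, 13 of 27, 8 of 18, 13 of 31 and 8 of 23 were in the lowest 5% of their list by fold. In D1 SC, CS, CC and SS the counts were 1 of 8, 0 of 16, 0 of 15 and 0 of 2. The 5 elements of all D2 lists and no D1 list had folds of 2.02 to 3.60, no higher than percentile 16.7 of any D2 list.

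**Figure D4:**
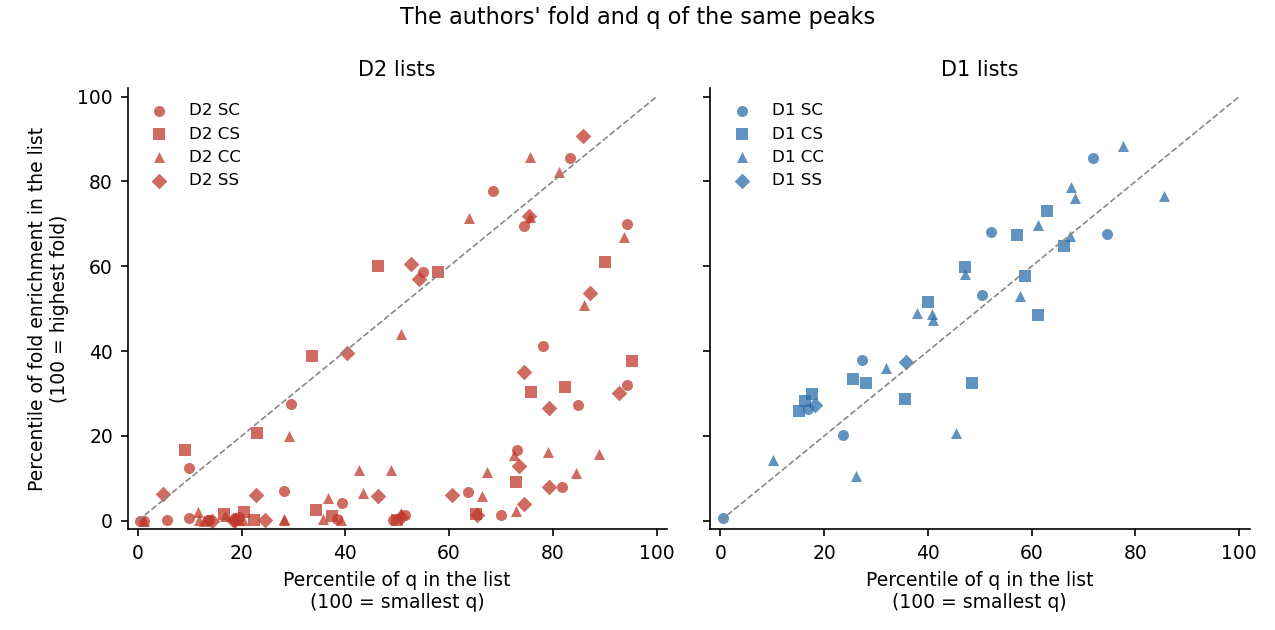
Percentile of the deposited fold enrichment against percentile of the deposited q-value within the list for each element of the window, D2 lists on the left and D1 lists on the right, 1 symbol shape per state. The dashed line marks equal percentiles. Many D2 elements lie near the bottom of the fold scale over a wide range of q, while D1 elements lie near the line.

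Set against each other state by state, the share of window elements that the D2 list held and the D1 list lacked was above the genome-wide share in all 4 states. In SC 19 of 27 elements (70.4%) were called in D2 and not in D1, against 55.2% of all elements, and 1 in D1 and not in D2, against 2.93%. In CS 5 of 19 (26.3%) were called in D2 and not in D1, against 2.68% of all elements, and 2 in D1 and not in D2, against 45.2%. In CC the count was 18 of 33 (54.5%) in D2 and not in D1, against 15.9% of all elements, and 2 in D1 and not in D2, against 23%. In SS it was 21 of 23 (91.3%) in D2 and not in D1, against 54.3% of all elements, and 0 in D1 and not in D2, against 0.782%. At equal list length the counts in D2 and not in D1 were 7 of 14, 10 of 17, 8 of 13 and 10 of 12 in SC, CS, CC and SS, against 24.6, 13.7, 18.5 and 16.8% of all elements. The CS and SS pairs lie within lists of 1 technical kind, told by the number of peaks on patch scaffolds, the extra sequences added to the assembly (70 in D2 CS and 114 in D1 CS, 7 in D2 SS and 4 in D1 SS). The SC pair (7 in D2 and 73 in D1) and the CC pair (7 in D2 and 137 in D1) cross the kinds, so in these technical kind and cell type cannot be told apart.

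Between the states of D2 the elements held by both lists differed by little more than the rest of the genome did. Compared with D2 SS, the local density ratio at shared elements had a median of 1.05 in SC (20 elements), 1.10 in CS (17) and 1.13 in CC (21), beside medians of 1.03, 1.05 and 1.10 over all shared elements of the genome. The height ratios had medians of 1.18, 1.23 and 1.19 in SC, CS and CC, beside 1.16, 1.19 and 1.14 over the genome. At the Drd2 promoter the heights were 17.4, 26.6 and 18.3 in SC, CS and CC, against 18.1 (14.9 to 21.8) in SS, and the interval of each overlapped that of SS.

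The number of D2 elements was lowest in CS, the list with the fewest peaks, and highest in CC, the list with the most. In D2 SC 6 of 29 elements were called and absent from D2 SS, against 10.2% of all elements, and 3 the other way, against 15.2%. In D2 CS 0 of 23 were called and absent from D2 SS, against 2.33%, and 6 the other way, against 59.3%. With lists of equal length these CS counts turned round, to 6 in D2 CS and absent from D2 SS and 0 the other way. D2 CS has many patch-scaffold peaks (70) and D2 SC, CC and SS few (7 each), so technical kind and state cannot be told apart for CS. In D2 CC 10 of 33 were called and absent from D2 SS, against 17.7%, and 2 the other way, against 8.36%. These 10 were elements at -66.8, -43.1, -21.7, -16.2, -15.3, +27.0, +34.3, +38.3, +39.3 and +107.8 kb, of which 6 were in D2 SC as well.

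In D1 the elements within the stretch were missing from the baseline list altogether. In D1 SC 7 of 9 elements were called and absent from D1 SS, against 18.4% of all elements, and 1 the other way, against 22.8%. In D1 CS the count was 12 of 14 absent from D1 SS, against 42.1%, and 0 the other way, against 7.04%. In D1 CC it was 13 of 15 absent from D1 SS, against 62.5%, and 0 the other way, against 0.869%. The 13 elements of D1 CC that D1 SS lacked had heights of 4.49 to 15.8 in D1 CC, all above 3.40, the lowest height at which D1 SS listed a peak on its background. They included 3 of the 4 elements of the distal flank, so the gap in D1 SS was not limited to Drd2 and Ttc12. Over all elements held by both lists, heights in D1 CC were 1.85 times those in D1 SS (median). A height above 3.40 in D1 CC thus need not be above it in D1 SS. D1 SS has few patch-scaffold peaks and the other D1 lists many, so technical kind and state cannot be told apart in these 3 comparisons.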

How the data were processed

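Per the submitters' processing notes, the genome build was mm10 and the tools included MACS2, HISAT, cutadapt and SAMtools, whose versions and roles are not given in the sources used here. The lists hold 0 columns per library. A fold over background (a ratio) and a q-value for every peak were deposited by the authors, 1 list per group, and whether libraries were pooled before calling is not stated. Distances and gene classes are the authors'. The members, gene lists and tests were chosen with earlier results of these data known. Only the autosomes (1 to 19), X and Y were analysed, with 27917 to 77103 peaks per list. Read totals were not used here.

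Reads were recovered by taking fold as reads plus 1 over background plus 1, with the background the higher of a genome-wide value and the mean of the surrounding 10 kb over 200 bp, and q as ordered by the Poisson tail. This form was inferred from the values and is not given in the sources used here. It solved 99.99 to 100% of the peaks of each list within 0.05 of whole reads. The solving was tested on simulated data made with the same form, which cannot test the form itself. Elements were named in full where 6 or more lists or a start within 1 kb held them, or where all D2 lists and no D1 list did. Shares of the genome are over merged elements of all 8 lists or, for a pair of lists, over elements that either or both hold. Gene positions and promoters come from RefSeq (GRCm38.p6), and every one of the genes listed was found there. Alternatives were q of at most 1e-05, equal list lengths, merging within 1 kb, a reciprocal overlap of 50%, each list left out, a flank of 50 kb and each technical kind alone. Local density and its ratio of 2 were chosen after seeing the data. The computations ran in Python 3.11.15 with scipy 1.17.1, numpy 2.4.6, pandas 2.3.3 and, for figures, matplotlib 3.10.9.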

Additional observations from a re-analysis of the deposited data

Results flagged for a closer look

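The number of elements and the covered length moved in opposite directions between CS and SS in the 2 cell types. In D2 the CS list held 17 elements against 23 in SS, a difference of -6, and its covered length differed by -4002 bp. In D1 the CS list held 14 elements against 2 in SS, a difference of 12, and its covered length differed by 4988 bp. With 1 list per group this difference between the cell types was not tested. Both comparisons set a list with many patch-scaffold peaks (CS) against one with few (SS), so technical kind and state cannot be told apart. With lists of equal length D2 CS held 17 elements against 11 in D2 SS, and D1 CS held 7 against 2 in D1 SS, so the opposite directions were not kept.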

How the results depend on the processing

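No paired analysis was possible because each group has 1 peak list with no column per library, and no replicate could be left out. The count of elements in all D2 lists and no D1 list was 5 to 7 with each list left out in turn (7 without D2 CS). It was 4 with a flank of 50 kb and 3 at q of at most 1e-05. Among the lists with many patch-scaffold peaks it was 5, where D2 CS was the only D2 list, against D1 SC, CS and CC. Among those with few (D2 SC, CC and SS against D1 SS) it was 17. The window held 18 elements with lists of equal length and 53 under reciprocal overlap, against 34. Counts that moved by over 1.5 times, in the order equal length, then reported, were as follows for elements in the first list and not in the second. For D2 SC and D1 SC they were 7 and 19, the other way 2 and 1. For D2 CS and D1 CS they were 10 and 5, the other way 0 and 2. For D2 CC and D1 CC they were 8 and 18, the other way 0 and 2. For D2 SS and D1 SS they were 10 and 21, the other way 1 and 0. Against D2 SS they were 2 and 6 for SC (the other way 1 and 3), 6 and 0 for CS (the other way 0 and 6) and 3 and 10 for CC (the other way 1 and 2). Against D1 SS they were 5 and 12 for CS and 4 and 13 for CC (the other way 1 and 0). The construction of this alternative, fewer peaks of the longer lists, accounts for lower counts in those lists. Under q of at most 1e-05 the counts were 1 for D1 CC and not D2 CC, 2 for D2 SC and not D2 SS, 5 for D2 SS and not D2 SC, 1 for D2 SS and not D2 CC, and 0 for D1 SS and not D1 SC. Merging within 1 kb left 1 element in D1 CC and not D2 CC. Reciprocal overlap, which splits elements, gave 5 in D1 SC and not D2 SC, 13 in D2 CS and not D1 CS, 11 the other way, 4 in D1 CC and not D2 CC, 1 in D1 SS and not D2 SS, 3 in D2 CS and not D2 SS, and 1 each in D1 SS and not D1 CS or D1 CC. Elements with a local density at least 2 times higher in D2 (alternatives chosen after seeing the data) were as many at ratios of 1.5 and 3 to within 1.5 times, and with lists of equal length they were 2 in SC, 3 in CS and 2 in CC.

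Depth limits the weakest sites most in D1 SC, where the background is 1.15 reads and the lowest listed height on it is 6.97. An element missing from a list is not shown to be closed there.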
